A study of Mus musculus with 12 samples.

Results

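The transgene effect in the olfactory bulb of hGFAP mice was compared between 2 ages. The effect is the difference in log2 signal between transgenic and wildtype bulb, and the quantity described here is its value at 4 months minus its value at P23, the interaction of genotype and age. All 12 of the 12 arrays of the series enter it. The groups were wildtype FVB/N mice at P23, hGFAP transgenic FVB/N mice at P23, wildtype FVB/N mice at 4 months and hGFAP transgenic FVB/N mice at 4 months, with 3 arrays each. P23 is 23 days after birth, and hGFAP was read as human GFAP. The promoter of the transgene, the line, its zygosity and the sex of the mice are not given in the sources used here, and neither is whether an array holds 1 animal or a pool. The p-values therefore measure the spread between arrays, which may be technical.

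GFAP, glial fibrillary acidic protein, is the main intermediate filament protein of astrocytes, and astrocytes make more of it after most injuries of the nervous system. An excess of GFAP in mouse astrocytes leads to Rosenthal fibres, the protein inclusions that also mark Alexander disease, a human disorder caused by GFAP mutations. The olfactory bulb is rich in astrocytes and receives new interneurons throughout life: neuroblasts born beside the lateral ventricle migrate into it and become granule and periglomerular cells. A bulk sample of such a tissue reports every cell type at once, so that fewer cells of a type and less RNA per cell cannot be told apart.

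Each gene was placed by 3 tests in limma, the effect at P23, the effect at 4 months and the interaction, with a gene called where its Benjamini-Hochberg adjusted p lay under 0.05. Signals under 209 were set to that floor, and the 5664 of 8251 genes with a geometric mean signal over 689 were kept. Genes were described in 38 lists, of whose 948 genes on the array 715 were kept. An effect was named late where the interaction and the 4 month effect were called in 1 direction and the P23 effect was not called. It was named growing where all 3 were called in 1 direction, and fading where a called P23 effect met an interaction called in the other direction. It was named level where both ages were called in 1 direction, the interaction was not called and its 95% interval lay within 1.5-fold, and unresolved where that interval was wider.

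Most genes that received a time class had a larger effect at 4 months than at P23. Of 5664 genes, 207 had a higher effect at 4 months than at P23 (3.65%) and 208 a lower one (3.67%), 7.33% in all. A late effect was found for 156 genes that were higher and 203 that were lower in transgenic bulb at 4 months. The late class does not show that an effect was absent at P23. At an unadjusted limma p under 0.05, 28 late higher and 20 late lower genes had a P23 effect in the same direction. For 12 and 12 it was in the opposite direction. Of all 7453 probe sets, 402 were higher and 587 lower at P23 at that unadjusted limma p. A growing effect was found for 44 higher genes and 1 lower gene, a level effect for 11 higher and 16 lower genes and an unresolved one for 36 higher and 7 lower genes. A fading effect was found for 5 genes. The remaining 6 genes called for the interaction had no call at either age. At P23 alone 97 genes were higher (1.71%) and 30 lower (0.530%), 2.24% in all. At 4 months 546 were higher (9.64%) and 1110 lower (19.6%), 29.2% in all. Of the 97 genes higher at P23, 91 were also called higher at 4 months, and of the 30 lower, 24 were also called lower. For 298 higher and 882 lower genes called at 4 months neither the P23 effect nor the interaction was called, and these have no time class.

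**Figure D1:**
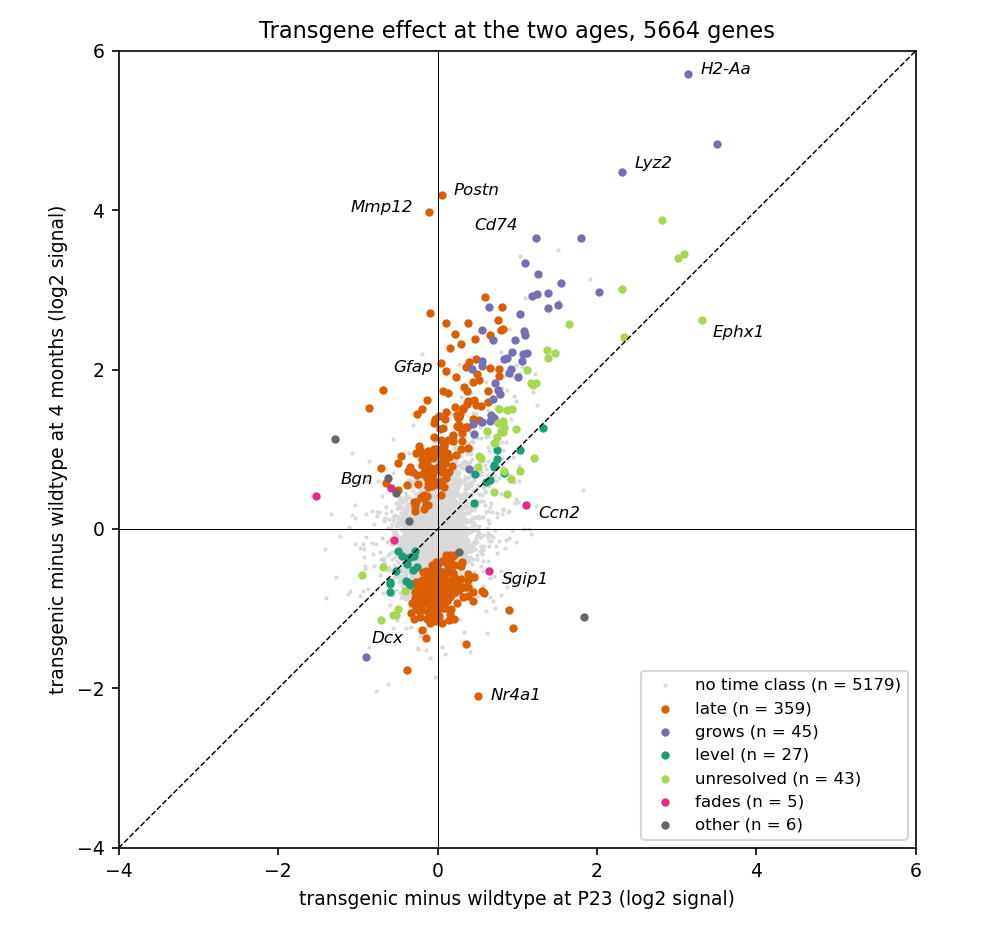
Difference between transgenic and wildtype bulb at P23 (horizontal axis) and at 4 months (vertical axis), in log2 signal, for 5664 genes. Each point is a gene, coloured by time class, and the dashed line marks equal effects. The 156 late higher genes scatter around 0 on the P23 axis (median 0.05) and lie above 0 on the 4 month axis, the 45 growing genes lie farther from zero at 4 months than at P23, and the 27 level genes follow the dashed line.

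The arrays and their scaling bear on the lower side of these calls. Arrays of 1 group correlated at 0.964 to 0.977 (Pearson, 12 pairs) and arrays of different groups at 0.937 to 0.975 (54 pairs), a description of log2 signals across genes, which are not independent replicates. The median interaction over all genes was -0.10 on the log2 scale with arrays scaled to a common median, and between -0.05 and -0.04 with 75th percentile scaling, quantile normalization or the values as deposited. It was 0.38 when the arrays were scaled to the bacterial control transcripts added to every sample, an alternative chosen after the data had been seen. The geometric mean of those controls ran from 15110 to 16470 in wildtype and from 17180 to 19910 in transgenic bulb at P23, and from 16410 to 17780 and from 14180 to 15880 at 4 months. With bacterial control scaling, all 207 genes with a higher effect kept their call. Of the 208 with a lower effect, 194 kept their sign and 16 their call. That scaling raised the interactions of nearly all genes alike, so the kept higher calls do not test it. Over all 7453 probe sets, 263 had a higher (3.53%) and 281 a lower effect (3.77%) at 4 months, 7.30% in all, and the second count was 449 without wildtype P23 replicate 4, 173 and 159 without transgenic P23 replicates 5 and 7, and 186 and 151 without wildtype 4 months replicates 3 and 10. The count of 203 late lower genes moved to 320, 125, 114, 135 and 108 without those arrays in turn. The part of RNA input in these calls was not tested.

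The late higher genes with the largest interactions were Postn, Mmp12 and Col5a2, and Gfap was late as well. Of 38 kept matrix, meningeal and fibroblast genes, 15 had a higher effect at 4 months and 0 a lower one (1 without wildtype P23 replicate 4 or wildtype 4 months replicate 9), 11 of the 15 late, 2 growing and 2, Bgn and Islr, fading from a lower P23 effect. The list's median effect was -0.05 at P23 and 0.52 at 4 months. Its median interaction of 0.42 compares with -0.10 over all genes. At P23 3 members were called higher and 3 lower.

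Postn (Entrez 50706, chromosome 3, 54359267 to 54391041 on GRCm38.p6), the matrix protein periostin made by fibroblasts and scar-forming cells, had the largest interaction of all genes called. At P23 it read 889, 894 and 1329 on the wildtype arrays and 1047, 1044 and 1072 on the transgenic arrays. Its 4 month signals were 597, 814 and 673 in wildtype and 14869, 11519 and 11541 in transgenic bulb. The groups overlapped at P23 and lay far apart at 4 months. The effect was 0.05 ± 0.18 (SE) at P23, with a 95% interval of -0.34 to 0.44, and 4.19 ± 0.18 at 4 months, an 18.2-fold difference, and the interaction was 4.14 ± 0.26 (limma adjusted p = 8.75e-07).

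Mmp12 (Entrez 17381, chromosome 9, 7344397 to 7360461), the metalloelastase that macrophages secrete to cleave matrix, followed the same course. Its signals were 507, 742 and 582 in wildtype and 553, 607 and 525 in transgenic bulb at P23. They were 388, 701 and 423 and 9234, 6861 and 7008 at 4 months, where the lowest transgenic array was far above the highest wildtype array. The effect was -0.10 ± 0.24 at P23 and 3.97 ± 0.24 at 4 months (interaction 4.08 ± 0.34, limma adjusted p = 6.25e-06).

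Several collagens were part of the late group, while Col1a1, the main fibrillar collagen, was called at neither age (0.20 ± 0.23 and -0.07 ± 0.23). Col5a2, a minor fibrillar collagen, read 2581, 2658 and 3247 in wildtype and 2249, 2542 and 3164 in transgenic bulb at P23, then 1201, 1503 and 1382 and 10456, 8057 and 8261 at 4 months. The signal fell with age in wildtype bulb (-1.05 ± 0.16, limma adjusted p = 0.00713) and rose in transgenic bulb (1.76 ± 0.16, limma adjusted p = 3.37e-06), and the interaction was 2.81 ± 0.22 (limma adjusted p = 3.73e-06). Col4a1, a chain of basement membrane collagen, changed with age by -0.82 ± 0.11 in wildtype and 0.38 ± 0.11 in transgenic bulb (limma adjusted p = 0.00404 and 0.0335), with an interaction of 1.20 ± 0.16 (limma adjusted p = 0.000301). Col3a1, the fibrillar collagen of soft tissue, had an effect of -0.69 ± 0.36 at P23 and 1.75 ± 0.36 at 4 months (interaction limma adjusted p = 0.00904). The summed signal of 4 fibroblast and meningeal markers (Col1a1, Col3a1, Lum and Dcn, of which Col3a1 lay at the floor on 1 array) ran from 9777 to 15120 and from 10620 to 12830 in wildtype and transgenic bulb at P23, and from 8920 to 10560 and from 16400 to 18510 at 4 months. Of these, Dcn, Lum and Col3a1 had higher and Col1a1 lower mean signals in transgenic than in wildtype bulb at 4 months (Dcn 10770 against 5512, Col1a1 3112 against 3303). Col1a1 and Dcn are named here after their values were seen. The part of such cells in the result was not tested.

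Gfap (Entrez 14580, chromosome 11, 102887336 to 102897200) had no called effect at P23. Its signals there were 5683, 8355 and 8004 in wildtype and 8180, 7409 and 10068 in transgenic bulb, and the groups overlapped. At 4 months they were 5970, 5454 and 6710 and 23516, 24070 and 20549, a 3.76-fold difference with no overlap. The effect went from 0.23 ± 0.15 to 1.91 ± 0.15, and the interaction was 1.68 ± 0.21 (limma adjusted p = 0.000209). The second probe set of the gene gave 0.51 ± 0.19 at P23 and 1.53 ± 0.19 at 4 months (interaction 1.02, limma adjusted p = 0.0309). These probe sets were designed on the mouse gene. Whether they also bind transcripts of the human transgene was not tested.

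**Figure D2:**
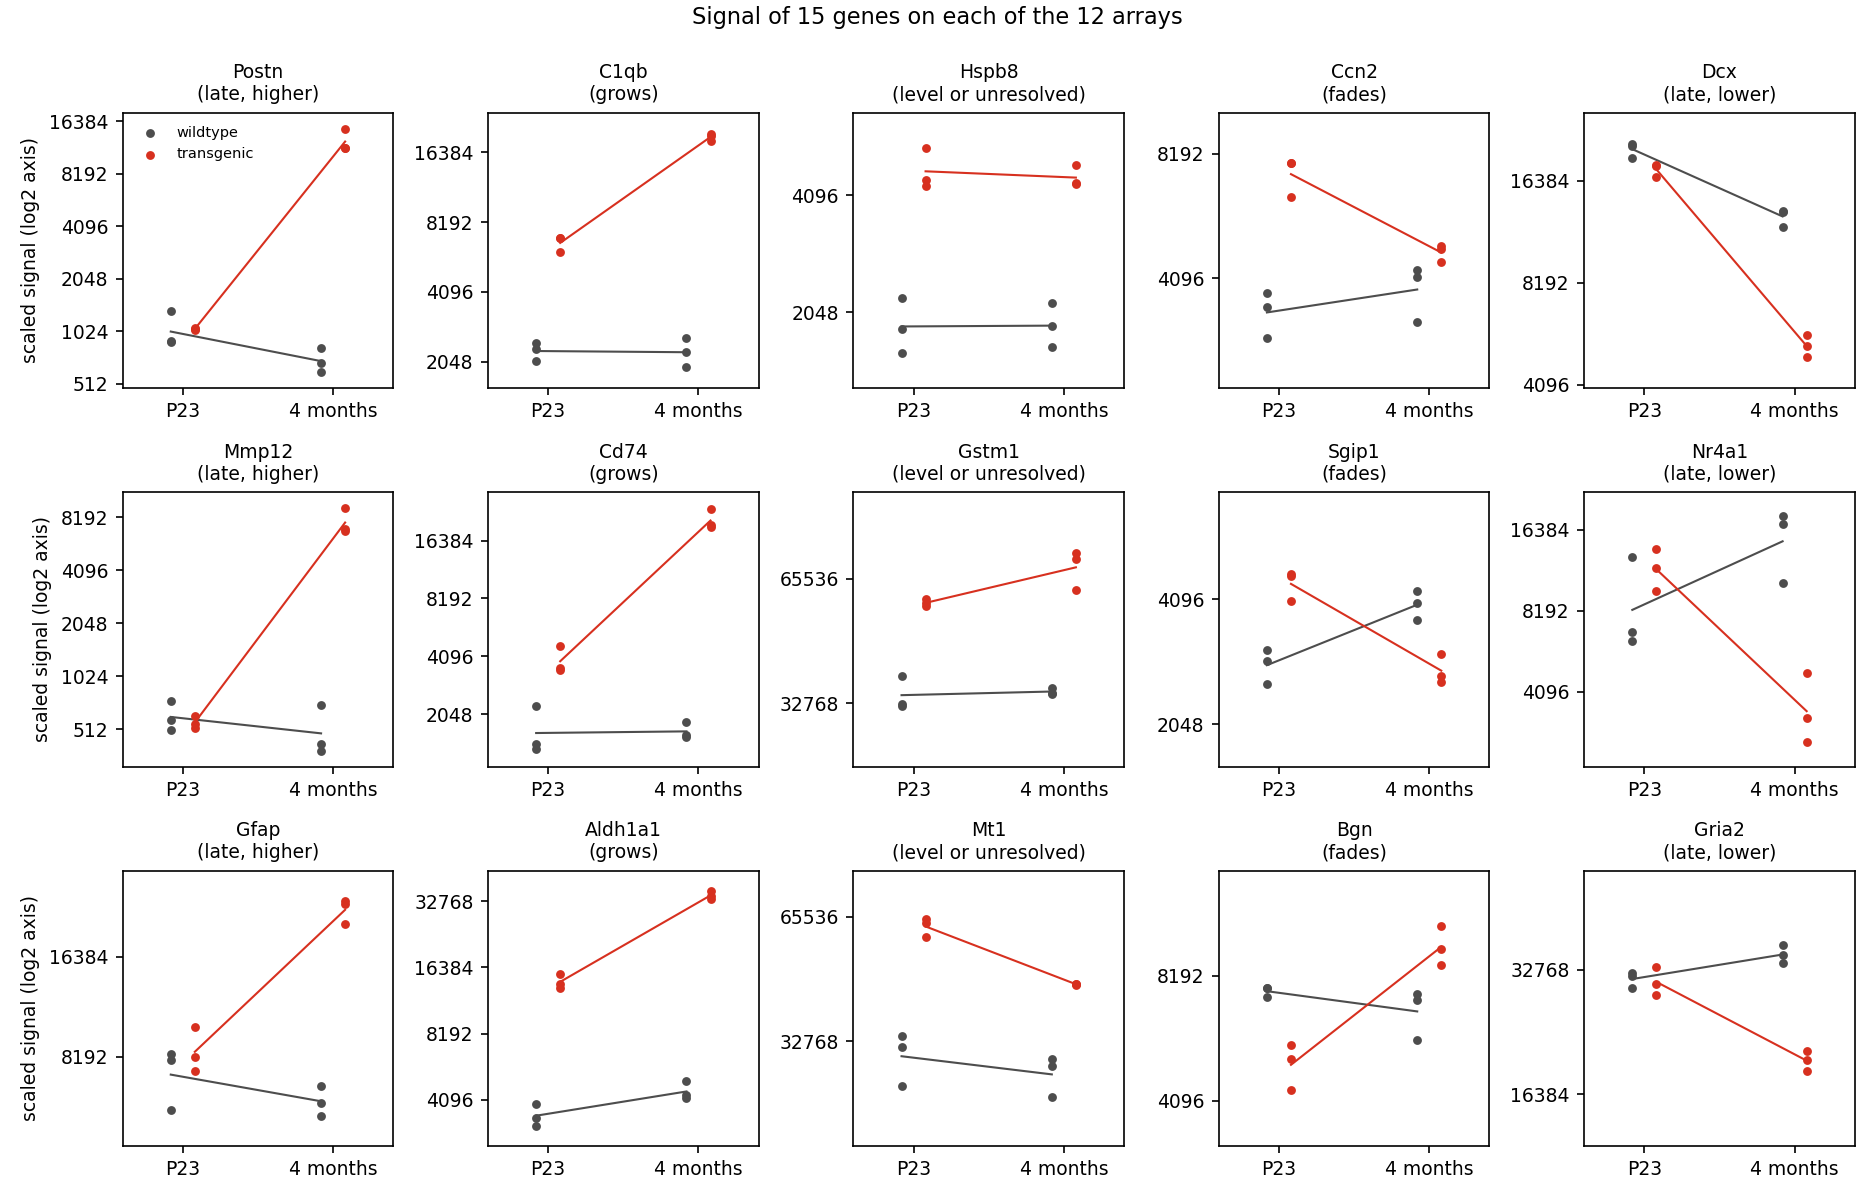
Scaled signal (log2 axis) of 15 genes on each of the 12 arrays, by age, with wildtype in grey and transgenic in red. Each point is an array and lines join the geometric means of 3 arrays; columns hold late higher, growing, level or unresolved, fading and late lower genes. Postn separated the genotypes at 4 months only, C1qb at both ages with a wider gap at 4 months, and Hspb8 by the same gap at both ages.

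Lysosomal genes called for the interaction were mostly late. Of 32 kept lysosome genes, 17 had a higher effect at 4 months and 0 a lower one (1 without wildtype P23 replicate 4), with 11 late, 5 growing and 1 called for the interaction alone. The list's median effect was 0.13 at P23 and 0.86 at 4 months. Ctsb, the cysteine protease cathepsin B, read 16369, 17321 and 17446 in wildtype and 16569, 19516 and 18383 in transgenic bulb at P23, then 16880, 15857 and 16795 and 46142, 39525 and 43076 at 4 months. Its effect rose from 0.09 ± 0.08 to 1.38 ± 0.08 (interaction limma adjusted p = 1.09e-05), while its other 2 probe sets gave interactions of 0.39 and 0.44 that were not called (limma adjusted p = 0.28 and 0.195). Ctsd, the aspartic protease cathepsin D, belonged to the growing class with 0.43 ± 0.08 at P23 and an interaction of 1.57 ± 0.12 (limma adjusted p = 2.89e-06). Its P23 call was lost when leaving out wildtype P23 replicate 12 (0.41, limma adjusted p = 0.0561), and likewise transgenic P23 replicate 6 (0.38, limma adjusted p = 0.0652) and with bacterial control scaling (0.23, limma adjusted p = 0.224), so that it then counted as late. Npc2, which carries cholesterol out of the lysosome, was late with 0.08 ± 0.09 and 1.05 ± 0.09 (interaction limma adjusted p = 0.000346).

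Among genes of innate immune cells the late group included Cyba and Mpeg1. Cyba, the light chain of the cytochrome of the phagocyte oxidase, read 2476, 3070 and 2794 in wildtype and 2817, 3313 and 2863 in transgenic bulb at P23, with groups that overlapped. The older bulbs gave 2100, 2717 and 2979 and 10414, 10230 and 9957 (interaction 1.88 ± 0.19, limma adjusted p = 3.77e-05). Mpeg1, the pore-forming perforin-2 of macrophages, had an effect of 0.10 ± 0.20 at P23 and 2.58 ± 0.20 at 4 months (interaction limma adjusted p = 0.000119). 

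Many immune genes that were already higher at P23 belonged to the growing class. Of 32 microglia and macrophage markers on the array 19 were kept. Of the 19 kept markers, 14 had a higher effect at 4 months and 0 a lower one, 8 of them growing and 6 late. The median effect of the 19 was 0.77 at P23 and 2.11 at 4 months. Immune genes dim in wildtype bulb could pass the filter through transgenic bulb alone, which raises such counts. Lyz2 had mean signals of 430 and 406 in wildtype and 2145 and 8499 in transgenic bulb at P23 and 4 months. Of 9 complement genes 7 had a higher effect at 4 months (4 growing and 3 late), with medians of 0.66 and 2.43. Of 9 class I antigen presentation genes 6 did (2 growing and 4 late), with medians of 0.24 and 1.52. No member of these 3 lists had a lower effect at 4 months.

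C1qa, C1qb and C1qc encode the chains of C1q, the starter of the classical complement cascade that microglia make in the brain, and lie side by side on chromosome 4. C1qb (Entrez 12260, chromosome 4, 136880126 to 136886200) read 2061, 2327 and 2450 in wildtype and 6073, 6966 and 6983 in transgenic bulb at P23. At 4 months it read 2262, 1944 and 2577 and 19205, 19691 and 18437. No wildtype array reached a transgenic one at either age, and wildtype bulb did not pass the test for a change with age (-0.02 ± 0.12, limma adjusted p = 0.965). The effect grew from 1.55 ± 0.12 to 3.09 ± 0.12 (interaction 1.54 ± 0.16, limma adjusted p = 5.75e-05). A second, dimmer probe set of C1qb gave -0.32 at P23, 0.52 at 4 months and an interaction of 0.84 that was not called (limma adjusted p = 0.0577). C1qa went from 1.25 ± 0.11 to 2.95 ± 0.11 and C1qc from 1.03 ± 0.12 to 2.70 ± 0.12, with interactions of 1.70 and 1.66 (limma adjusted p = 1.32e-05 and 3.77e-05). The interactions of the 3 chains thus lay between 1.54 and 1.70.

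The promoters of C1qb and C1qc are shown because both genes moved together, each from 250 bases before to 50 bases after the start site in RefSeq's annotation of GRCm38.p6, 5′ to 3′ on the strand of the gene. Capitals mark GAGGAA, the core letters bound by PU.1, the transcription factor of the myeloid lineage, or its reverse complement TTCCTC.
C1qb, minus strand, chr4:136886151-136886450: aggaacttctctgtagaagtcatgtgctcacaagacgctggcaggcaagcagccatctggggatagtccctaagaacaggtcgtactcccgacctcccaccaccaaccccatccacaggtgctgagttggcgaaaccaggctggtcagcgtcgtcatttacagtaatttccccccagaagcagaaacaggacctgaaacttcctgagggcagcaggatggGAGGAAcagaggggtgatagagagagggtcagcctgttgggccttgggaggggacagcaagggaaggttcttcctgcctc
C1qc, minus strand, chr4:136892865-136893164: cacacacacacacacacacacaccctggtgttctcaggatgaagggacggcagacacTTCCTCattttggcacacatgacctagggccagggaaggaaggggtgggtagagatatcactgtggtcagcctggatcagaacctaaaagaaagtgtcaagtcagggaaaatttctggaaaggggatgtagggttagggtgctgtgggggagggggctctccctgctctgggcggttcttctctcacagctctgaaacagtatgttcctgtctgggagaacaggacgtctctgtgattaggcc
Counted from the start site, the match begins at position -30 in C1qb and, on the opposite strand, at -193 in C1qc. At least 1 match on either strand is found in 28.3% of the 32851 promoters of this table.

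Tyrobp, Cd68, Ctss and Lyz2 show the course in markers of microglia and macrophages. Tyrobp, the signalling adaptor of their activating receptors, read 1416, 1461 and 1360 in wildtype and 3049, 3151 and 2850 in transgenic bulb at P23, then 1614, 853 and 1121 and 11988, 11993 and 11097 at 4 months. The effect grew from 1.09 ± 0.18 to 3.34 ± 0.18 (interaction limma adjusted p = 7.35e-05). Ctss, the cathepsin that these cells use for class II peptide loading, grew from 1.39 ± 0.08 to 2.96 ± 0.08 (interaction 1.57 ± 0.11, limma adjusted p = 2e-06). Lyz2, lysozyme, was among the largest effects at both ages, with 2.32 ± 0.28 and 4.48 ± 0.28 (interaction 2.16 ± 0.40, limma adjusted p = 0.00485). Cd68, a lysosomal membrane protein of phagocytes, went from 0.56 ± 0.13 to 2.50 ± 0.13 (interaction limma adjusted p = 1.52e-05). The P23 call of Cd68 lay close to the threshold (limma adjusted p = 0.0352) and ended without wildtype P23 replicate 4 (0.49, limma adjusted p = 0.101) or 11 (0.51, limma adjusted p = 0.113), transgenic P23 replicate 5 (0.54, limma adjusted p = 0.14), 6 (0.60, limma adjusted p = 0.0574) or 7 (0.52, limma adjusted p = 0.121), or transgenic 4 months replicate 1 (0.56, limma adjusted p = 0.0535) or 2 (0.56, limma adjusted p = 0.0588). Cd68 counted as late there.

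Class II antigen presentation, by which macrophages show peptides to CD4+ T cells, held genes that were higher in transgenic bulb at P23 and farther apart at 4 months. Of 11 genes on the array 6 were kept. Of these, 3 were called higher at P23 and 5 at 4 months, and 2, Cd74 and H2-Aa, had a higher effect at 4 months, both growing. The P23 call of H2-DMb1, 1 of the 3, was lost in 11 of the 12 fits that left out 1 array. At an unadjusted limma p under 0.05, 1 of the 6 was lower at P23. H2-Aa (Entrez 14960, chromosome 17, 34282744 to 34287823), the alpha chain of the class II molecule, lay at the floor of 209 on all 6 wildtype arrays. It read 1610, 1860 and 2119 in transgenic bulb at P23, at least 8.85-fold above the floor, and 13095, 10330 and 9749 at 4 months, at least 52.4-fold above it. H2-Aa thus passed the filter through transgenic bulb alone. Its fitted interaction holds only the change with age in transgenic bulb. The growing class of H2-Aa is therefore not read as a difference of effects. Cd74, the invariant chain that guides class II molecules, read 1344, 2272 and 1428 in wildtype and 3482, 3545 and 4663 in transgenic bulb at P23, then 1557, 1592 and 1867 and 23840, 19247 and 19757 at 4 months. Its effect grew from 1.24 ± 0.18 to 3.65 ± 0.18 (interaction 2.40 ± 0.26, limma adjusted p = 5.75e-05). H2-Ab1, the beta chain, had an effect of 1.52 ± 0.41 at P23, which was not called, and of 3.50 ± 0.41 at 4 months. Its interaction missed the threshold (limma adjusted p = 0.0543) but passed it with 4 other scalings, as with the values as deposited (2.04, limma adjusted p = 0.0469).

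Class I genes, which all nucleated cells can express, mixed both courses. H2-D1 grew from 0.69 ± 0.09 to 2.37 ± 0.09 (interaction 1.67 ± 0.12, limma adjusted p = 2e-06) and H2-K1 from 1.09 ± 0.09 to 2.48 ± 0.09 (interaction limma adjusted p = 1.82e-05). Of 2 other H2-K1 probe sets, 1 was unresolved (interaction 0.87, limma adjusted p = 0.0763) and 1 late (-0.16 at P23, interaction 1.61, limma adjusted p = 0.0255), and of 2 other H2-D1 probe sets 1 was growing and 1 late. Psmb8, a subunit of the immunoproteasome that cuts peptides for class I, was late with 0.83 ± 0.22 and 2.50 ± 0.22. H2-M3, a class I molecule that binds formylated peptides, read 1424, 1457 and 1239 in wildtype and 588, 762 and 967 in transgenic bulb at P23, then 553, 1092 and 715 and 2707, 2191 and 1732 at 4 months. All 3 transgenic arrays were below the wildtype arrays at P23 and above them at 4 months. Its P23 effect of -0.86 ± 0.26 was not called (limma adjusted p = 0.131) and its 4 month effect was 1.52 ± 0.26 (interaction limma adjusted p = 0.00153). Class I probe sets can bind transcripts of near-identical relatives, so that the gene behind each value is uncertain. Of 14 interferon response genes 4 had a higher effect at 4 months, and Ifitm3, an antiviral membrane protein, grew from 1.39 ± 0.11 to 2.77 ± 0.11 (interaction limma adjusted p = 5.75e-05).

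The summed signal of 9 microglia and macrophage markers ran from 15160 to 15270 in wildtype and from 25270 to 26990 in transgenic bulb at P23, and from 14460 to 15740 and from 63110 to 71280 at 4 months. Among the 9, Fcer1g lay at the floor on 9 arrays and Itgam on 5. The share of these cells and its part in the immune gene groups was not tested. Of the 6 lymphocyte markers on the array, the T cell genes Cd8a, Cd3g and Cd3e lay at the floor on 12, 11 and 8 arrays, while Cd4 and the B cell genes Cd79a and Ms4a1 lay at it on 0 arrays. Their summed signal ran from 4411 to 5576 in wildtype and from 3675 to 4545 in transgenic bulb at P23, and from 3702 to 4658 and from 3612 to 5619 at 4 months. Of the 9 kept lymphocyte and granulocyte markers 1 was called higher at P23 and 4 at 4 months. None was called by limma for the interaction (unadjusted p under 0.05 for 1 higher and 0 lower), 3 were called higher with bacterial control scaling, and 1 was called higher without transgenic P23 replicate 6 or wildtype 4 months replicate 10. Granulocyte markers summed to between 1727 and 2880 in wildtype and between 2318 and 5347 in transgenic bulb at P23, and to between 1055 and 1759 and between 1790 and 2474 at 4 months.

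Among genes that astrocytes switch on after injury, most of those called for the interaction were growing, while Gfap was late. Of 21 kept genes 9 had a higher effect at 4 months and 0 a lower one, 6 of them growing and 3 late. The median effect was 0.61 at P23 and 2.11 at 4 months. Osmr, the oncostatin M receptor, read 758, 657 and 686 in wildtype and 2640, 2088 and 2590 in transgenic bulb at P23, then 638, 593 and 809 and 10033, 8296 and 7258 at 4 months. The effect grew from 1.79 ± 0.17 to 3.65 ± 0.17 (interaction 1.85 ± 0.24, limma adjusted p = 0.000301). Serpina3n, a secreted protease inhibitor, grew from 0.55 ± 0.09 to 2.11 ± 0.09 (interaction limma adjusted p = 5.13e-06). S100a6, a calcium-binding protein, had the largest interaction of this list at 2.14 ± 0.21 (limma adjusted p = 2.12e-05), from 0.64 ± 0.15 to 2.78 ± 0.15. Its P23 call was lost when leaving out wildtype P23 replicate 11 (0.57, limma adjusted p = 0.121) or 12 (0.59, limma adjusted p = 0.112), any transgenic P23 replicate (0.61 to 0.69, limma adjusted p from 0.0646 to 0.121) or transgenic 4 months replicate 1 (0.64, limma adjusted p = 0.0519). The P23 call of Serpina3n ended with bacterial control scaling (0.35, limma adjusted p = 0.0766). Nes, the intermediate filament protein nestin of immature and reactive astrocytes, grew from 1.12 ± 0.13 to 2.21 ± 0.13 (interaction limma adjusted p = 0.00214).

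Cytokines and chemokines went in both directions. Of 9 kept genes 2 were called higher at P23, and 3 higher and 2 lower at 4 months. The median 4 month effect was -0.01, and the sign of the median interaction (-0.285) turned with bacterial control scaling (0.19). Cx3cl1, the neuronal ligand of the microglial receptor Cx3cr1, was late on the lower side, from -0.24 ± 0.07 to -0.89 ± 0.07 (interaction limma adjusted p = 0.00101), a call that ended with bacterial control scaling (-0.17, limma adjusted p = 0.449). Cxcl12, a chemokine that guides migrating cells, had effects of 0.02 ± 0.18 and -0.70 ± 0.18, the second called lower (limma adjusted p = 0.00923) except with bacterial control scaling (-0.42, limma adjusted p = 0.178). Second probe sets of these genes disagreed: that of Cx3cl1 was called at neither age (-0.07 at 4 months, limma adjusted p = 0.944), and that of Cxcl12 was called higher at 4 months (0.65, limma adjusted p = 0.0379), so the direction of Cxcl12 is uncertain. Ccl2 and Cxcl1 were higher in transgenic bulb at both ages. Ccl2, a chemokine that attracts monocytes, lay at the floor on all 6 wildtype arrays and on the transgenic arrays read 2571, 2290 and 2259 at P23 and 8000, 5823 and 4551 at 4 months. Its transgenic geometric mean was thus at least 11.3-fold above wildtype at P23 and at least 28.5-fold at 4 months. With wildtype bulb at the floor at both ages, the fitted interaction of Ccl2 holds only the change with age in transgenic bulb. It is not given as a difference of effects. Cxcl1, which attracts neutrophils, had a transgenic geometric mean at least 8.54-fold above wildtype at P23, where wildtype bulb lay at the floor. It stayed unresolved (interaction 0.36 ± 0.46, limma adjusted p = 0.69), and the sign of its interaction depended on the processing. The interaction was 1.14 and called with a floor at the 40th percentile (limma adjusted p = 0.00233), -0.46 with no floor (limma adjusted p = 0.665) and -0.03 without wildtype 4 months replicate 10 (limma adjusted p = 0.976). Of 22 cytokine receptor and signalling genes 5 had a higher effect at 4 months, 3 without wildtype 4 months replicate 10 or transgenic 4 months replicate 1. Cebpd, a transcription factor of the acute phase response, grew from 1.51 ± 0.12 to 2.81 ± 0.12 (interaction limma adjusted p = 0.000301). Socs3, the feedback inhibitor of STAT3 signalling, was late: 512, 639 and 446 in wildtype and 847, 479 and 654 in transgenic bulb at P23 became 1001, 493 and 552 and 3627, 3826 and 2449 at 4 months (interaction 2.03 ± 0.43, limma adjusted p = 0.0105).

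Detoxification and metal-binding genes had called effects at P23. Their interaction calls were near the shares over all genes, 3.65% higher and 3.67% lower, and so do not set these lists apart. Of 43 kept antioxidant and detoxification genes 10 were called higher and 0 lower at P23, and 12 higher and 4 lower at 4 months. Over all genes the shares were 1.71% higher and 0.530% lower at P23, and 9.64% and 19.6% at 4 months. The interaction was called for 1 higher and 1 lower gene of the list. The higher count was 3 without wildtype P23 replicate 11 and 2 without wildtype 4 months replicate 3 or 9, and the lower count was 0 without transgenic P23 replicate 6 or 7, transgenic 4 months replicate 2 or 8, wildtype P23 replicate 11 or 12, or any wildtype 4 months replicate. The list's median effect was 0.20 at P23 and 0.19 at 4 months, with a median interaction of 0.01. The median interaction was 0.49 with bacterial control scaling, 0.11 above the median of all genes under that scaling, and 11 genes were then called higher. For metal and iron handling genes that count was 5. Antioxidant and detoxification genes include targets of Nfe2l2, the transcription factor of the oxidative stress response, and enzymes that conjugate electrophiles.

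Gstm1, a glutathione S-transferase, was the 1 level gene of this list. It read 32386, 38166 and 32673 in wildtype and 56213, 57161 and 58462 in transgenic bulb at P23. Its values at 4 months were 34816, 34462 and 35768 and 61551, 73073 and 75498, with no overlap at either age. The effects were 0.74 ± 0.08 and 0.99 ± 0.08, and the interaction was 0.26 ± 0.12 with a 95% interval of 0.00 to 0.51 (limma adjusted p = 0.213). With bacterial control scaling the interaction was called (0.73, limma adjusted p = 0.00911). A second, dimmer probe set of Gstm1 was called at neither age.

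Other stress genes stayed unresolved, because their intervals were wider than 1.5-fold. Ephx1, an epoxide hydrolase chosen after its values were seen, read 458, 273 and 287 in wildtype and 2957, 3169 and 3824 in transgenic bulb at P23, then 1006, 488 and 1331 and 4726, 6308 and 5084 at 4 months. The effects were 3.32 ± 0.30 and 2.62 ± 0.30, and the interval of the interaction ran from -1.63 to 0.22 (limma adjusted p = 0.352). Txnrd1, thioredoxin reductase, went from 0.80 ± 0.11 to 1.23 ± 0.11 and its interaction missed the threshold here (limma adjusted p = 0.0947) but passed it with the 4 other scalings, as with 75th percentile scaling (0.49, limma adjusted p = 0.0451), and without wildtype P23 replicate 11 (0.53, limma adjusted p = 0.0465). Aldh1a1, a retinaldehyde dehydrogenase, was the 1 gene of the list that grew, from 2.03 ± 0.10 to 2.97 ± 0.10 (interaction 0.94 ± 0.15, limma adjusted p = 0.00153).

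Metallothioneins, small proteins that bind zinc and copper and that astrocytes induce under stress, were higher at both ages. Both genes described here were chosen after their values were seen. Mt1 read 25511, 33853 and 31820 in wildtype and 63160, 64513 and 58581 in transgenic bulb at P23, then 29638, 24027 and 28522 and 45066, 44885 and 45104 at 4 months. Its effect was 1.04 ± 0.10 at P23 and 0.72 ± 0.10 at 4 months, with an interaction of -0.32 ± 0.14 that was not called (limma adjusted p = 0.201). Mt2 had effects of 0.92 ± 0.13 and 0.63 ± 0.13 (interaction -0.28, limma adjusted p = 0.358). The point estimates of both were smaller at 4 months than at P23, a difference that did not pass the test. Of 16 kept metal and iron handling genes 5 were called higher and 0 lower at P23, and 8 higher and 2 lower at 4 months. The interaction was called for 1, the ferritin chain Fth1 (0.37 ± 0.10). A second probe set of Fth1 went the other way, with an interaction of -0.24 (limma adjusted p = 0.381) and a called lower effect at 4 months (-0.32, limma adjusted p = 0.0406). The call of the first was lost when wildtype P23 replicate 12, transgenic P23 replicate 6, any wildtype 4 months replicate, or transgenic 4 months replicate 1 or 2 was left out. Cp, the ferroxidase ceruloplasmin, read 678, 832 and 351 in wildtype and 4272, 3875 and 4213 in transgenic bulb at P23, then 640, 402 and 414 and 7470, 7656 and 5929 at 4 months (interaction 1.06 ± 0.38, limma adjusted p = 0.112). The interaction of Cp was called without wildtype P23 replicate 12 (1.43, limma adjusted p = 0.0115).

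The promoters of both metallothioneins, neighbours on chromosome 8, are shown for the same window and build, since these genes moved together at both ages. Capitals mark TGCACNC or TGCGCNC, the core of the metal response element bound by MTF-1, or its reverse complement.
Mt1, plus strand, chr8:94178839-94179138: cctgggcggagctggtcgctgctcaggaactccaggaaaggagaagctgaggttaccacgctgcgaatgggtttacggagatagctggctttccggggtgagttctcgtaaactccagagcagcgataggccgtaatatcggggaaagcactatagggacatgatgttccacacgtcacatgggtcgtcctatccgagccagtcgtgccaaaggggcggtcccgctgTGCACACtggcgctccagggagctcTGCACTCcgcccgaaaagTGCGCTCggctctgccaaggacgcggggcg
Mt2, plus strand, chr8:94172368-94172667: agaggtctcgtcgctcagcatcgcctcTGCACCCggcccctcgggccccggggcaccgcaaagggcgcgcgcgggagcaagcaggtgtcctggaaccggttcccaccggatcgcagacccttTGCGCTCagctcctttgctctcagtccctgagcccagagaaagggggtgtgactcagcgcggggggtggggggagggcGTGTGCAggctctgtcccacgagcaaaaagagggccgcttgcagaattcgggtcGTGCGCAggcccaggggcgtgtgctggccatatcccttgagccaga
Mt1 held 3 matches and Mt2 held 4. At least 3 are found in 1.97% of the 32851 promoters and at least 4 in 0.517%, and at least 1 in 25.7%.

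Other level genes were named by the size of their effect. Hspb8, a small heat shock protein that works with the autophagy factor Bag3, read 1612, 2234 and 1852 in wildtype and 4498, 4321 and 5421 in transgenic bulb at P23, then 1663, 2161 and 1883 and 4371, 4903 and 4396 at 4 months. Its effects of 1.33 ± 0.15 and 1.27 ± 0.15 gave an interaction of -0.06 ± 0.21 with an interval of -0.50 to 0.38. H1f2, a linker histone, had 1.03 and 0.99, Gna13, a G protein subunit, 0.75 and 0.88, and Hopx, a homeodomain protein of astrocytes and stem cells, 0.83 and 0.70. Abca1, a cholesterol exporter, had 0.71 and 0.78. Gna13 and Abca1 were called for the interaction with bacterial control scaling (0.61 and 0.55, limma adjusted p = 0.0215 and 0.0377). A second probe set of Gna13 was called at neither age (0.29 and 0.37, limma adjusted p = 0.599 and 0.187), and that of Abca1 was not called at P23 (0.36, limma adjusted p = 0.352). On the lower side the level class held 16 genes, led by Ndufb3, a subunit of respiratory complex I, with -0.60 ± 0.12 and -0.79 ± 0.12. Its P23 call was lost when leaving out wildtype P23 replicate 4 (-0.49, limma adjusted p = 0.0528) or any transgenic P23 replicate (-0.61 to -0.60, limma adjusted p from 0.0514 to 0.057). The 27 level genes became 11 and 16 without wildtype P23 replicates 11 and 12, 8, 11 and 10 without transgenic P23 replicates 5, 6 and 7, 16 and 14 without wildtype 4 months replicates 9 and 10, and 16 and 15 without transgenic 4 months replicates 1 and 2.

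Fading effects were rare. Ccn2, a matricellular growth factor of the CCN family, read 3784, 2940 and 3501 in wildtype and 7770, 6441 and 7790 in transgenic bulb at P23, with no overlap. At 4 months it read 4300, 3210 and 4135 and 4896, 4816 and 4482, where the effect was 0.30 ± 0.13 and not called (limma adjusted p = 0.113). The P23 effect was 1.11 ± 0.13 and the interaction -0.81 ± 0.19 (limma adjusted p = 0.0178), a call that ended without transgenic P23 replicate 5 (-0.77, limma adjusted p = 0.0504) or 7 (-0.77, limma adjusted p = 0.0506) or wildtype 4 months replicate 10 (-0.76, limma adjusted p = 0.0502) and with bacterial control scaling (-0.33, limma adjusted p = 0.214).

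Sgip1 and Bgn changed direction between the ages. Sgip1, an endocytic adaptor of neurons, read 3088, 2553 and 2911 in wildtype and 4710, 4056 and 4654 in transgenic bulb at P23, then 4289, 3654 and 4008 and 2584, 2682 and 3023 at 4 months. It was higher in transgenic bulb at P23 (0.65 ± 0.12, limma adjusted p = 0.00758) and lower at 4 months (-0.53 ± 0.12, limma adjusted p = 0.00418), with no overlap of the groups at either age. Its 4 month call ended with bacterial control scaling (-0.25, limma adjusted p = 0.189). Bgn, the matrix proteoglycan biglycan, read 7277, 7662 and 7649 in wildtype and 5585, 4338 and 5164 in transgenic bulb at P23, then 5740, 7395 and 7172 and 9499, 8702 and 10797 at 4 months. It was lower at P23 (-0.59 ± 0.12, limma adjusted p = 0.0179) and higher at 4 months (0.52 ± 0.12, limma adjusted p = 0.00584), and its P23 call ended with quantile normalization (-0.52, limma adjusted p = 0.0652) and when leaving out wildtype P23 replicate 11 (-0.58, limma adjusted p = 0.0606) or 12 (-0.58, limma adjusted p = 0.067), and likewise transgenic P23 replicate 6 (-0.49, limma adjusted p = 0.0831) or 7 (-0.61, limma adjusted p = 0.0505). A second probe set of Bgn was called at neither age (interaction -0.26, limma adjusted p = 0.571). Islr, a leucine-rich repeat protein of stromal cells, was lower at P23 (-0.55 ± 0.08) with no called effect at 4 months (-0.14 ± 0.08), and Asb6, a ubiquitin ligase adaptor, likewise (-1.53 ± 0.33 and 0.42 ± 0.33). The interactions of Islr and Asb6 were 0.41 and 1.95 (limma adjusted p = 0.0463 and 0.0216). The interaction of Islr lost its call when any 1 array other than wildtype P23 replicate 4 was left out (0.36 to 0.45, limma adjusted p from 0.0547 to 0.103). That of Asb6 lost it without wildtype P23 replicate 12 (1.90, limma adjusted p = 0.0504), transgenic P23 replicate 7 (1.81, limma adjusted p = 0.0582) or wildtype 4 months replicate 10 (1.72, limma adjusted p = 0.0588). Its P23 call was lost when leaving out any wildtype P23 replicate (-1.58 to -1.48, limma adjusted p from 0.0606 to 0.0879) or transgenic P23 replicate 6 (-1.41, limma adjusted p = 0.0922) or 7 (-1.39, limma adjusted p = 0.107), and with no filter (limma adjusted p = 0.136) or no variance trend (limma adjusted p = 0.0605). For Bgn these last settings ended the P23 call as well (limma adjusted p = 0.0689 and 0.0605). The 5 fading genes became 11 without wildtype P23 replicate 4, 3 without transgenic P23 replicate 7 or wildtype P23 replicate 12, and 2 without transgenic P23 replicate 6 or wildtype 4 months replicate 10.

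**Figure D3:**
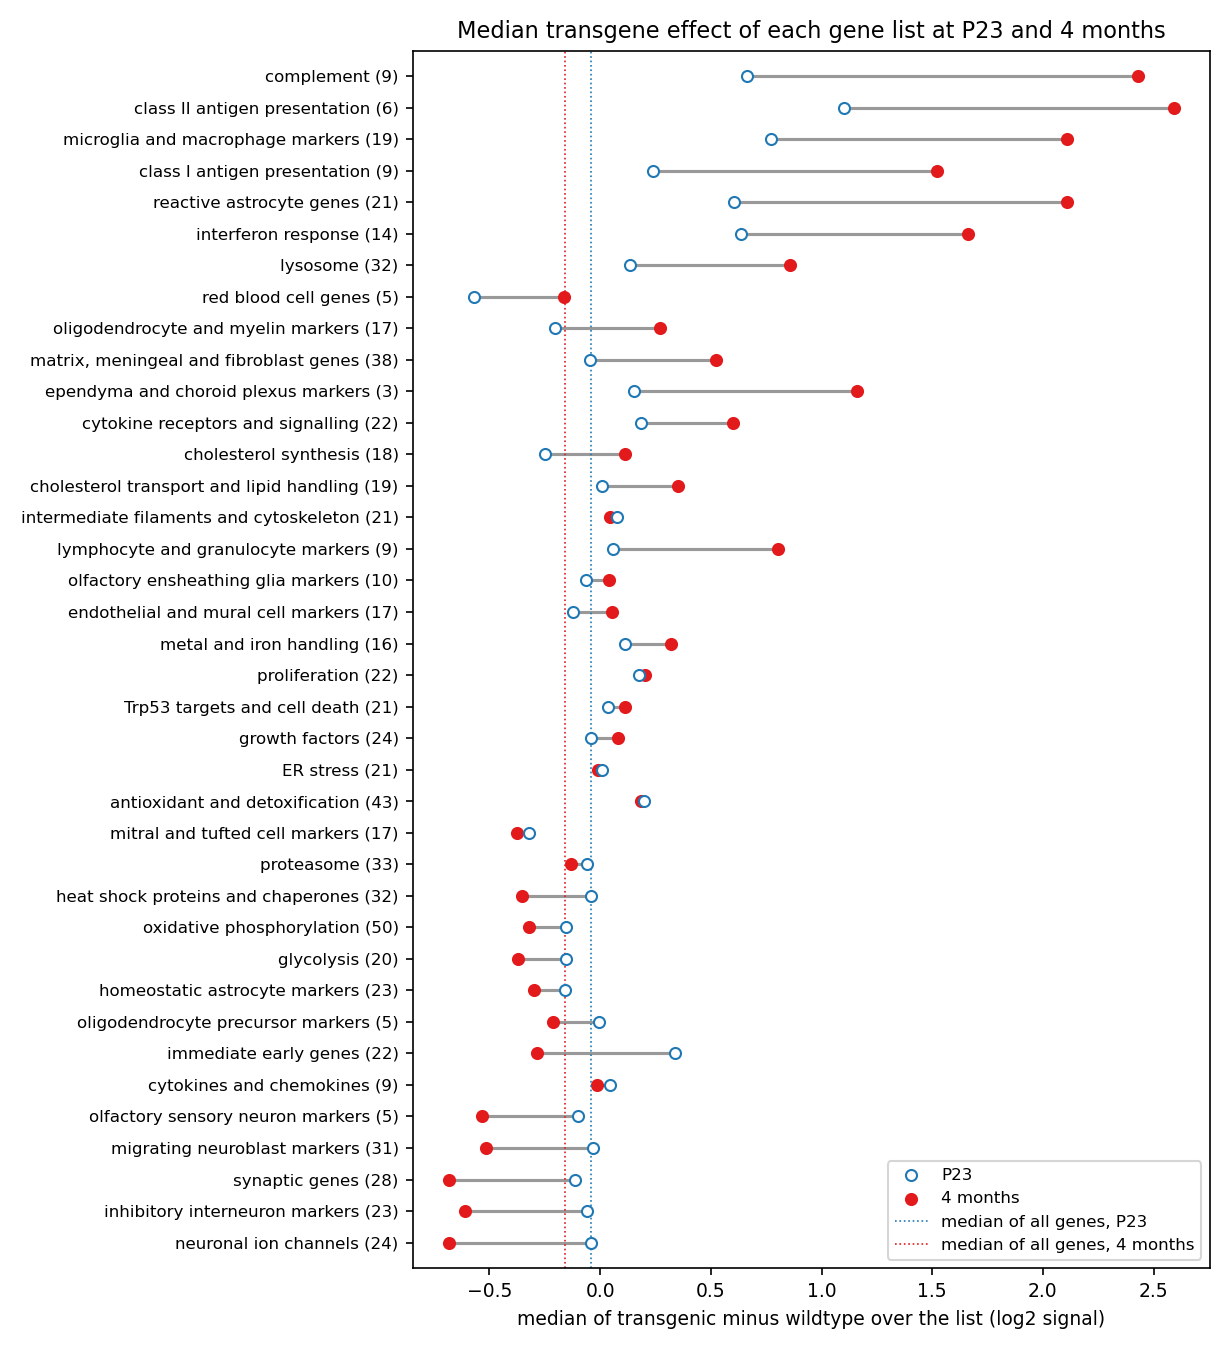
Median effect (transgenic minus wildtype, log2 signal) of the kept genes of 38 lists at P23 (open circles) and at 4 months (filled circles), ordered by median interaction, with the number of kept genes in brackets. Dotted lines mark the medians over all genes, -0.04 at P23 and -0.16 at 4 months. The complement, class II and microglia lists have the highest median interactions (1.66, 1.36 and 1.24) and the ion channel, interneuron and synaptic lists the lowest (-0.63, -0.60 and -0.56, and -0.15, -0.12 and -0.08 with bacterial control scaling); for 10 lists the sign of the median interaction turned with bacterial control scaling.

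Late effects on the lower side included many neuronal genes. Of 28 kept synaptic genes 8 had a lower effect at 4 months and 0 a higher one, all 8 late. Of 24 neuronal ion channels 9 did, and of 23 inhibitory interneuron markers 9. No ion channel or interneuron marker had a higher effect. At P23 these 3 lists held 0, 0 and 1 called genes, all lower, while at 4 months 20, 16 and 16 genes were called lower and none higher. Their median effects went from -0.11 to -0.68, from -0.04 to -0.68 and from -0.06 to -0.61. The median interactions of -0.56, -0.63 and -0.60 stayed below 0 under every scaling but shrank to -0.08, -0.15 and -0.12 with bacterial control scaling, where 3, 0 and 0 genes were called lower and 0, 1 and 2 higher. Relative to the median of all genes under the same scaling, the 3 medians lay between -0.565 and -0.464 under all 5 scalings. Scaling with 1 factor per array shifts all genes nearly alike. This agreement was therefore largely fixed in advance and does not test the scaling. Without transgenic P23 replicate 5 the channel count was 5, and without transgenic P23 replicate 7 or wildtype P23 replicate 11 the interneuron count was 5. The 17 kept mitral and tufted cell markers had a lower median effect than these 3 lists already at P23. Their median effect was -0.32 at P23 and -0.375 at 4 months, and their median interaction was -0.07 (0.41 with bacterial control scaling). Of these 17, 3 had a lower and 1 a higher effect at 4 months, all of them late. At 4 months 7 were called lower and 1 higher (19.6% and 9.64% over all genes). At P23 none was called, while 7 were lower and 1 higher at an unadjusted limma p under 0.05. Of all 7453 probe sets, 587 were lower and 402 higher at P23 at that p.

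Gria2, the AMPA receptor subunit that keeps the channel closed to calcium, read 32134, 31563 and 29647 in wildtype and 33204, 28510 and 30280 in transgenic bulb at P23, with groups that overlapped. At 4 months it read 34022, 37474 and 35472 in wildtype and 19871, 20856 and 18634 in transgenic bulb. The effect went from -0.02 ± 0.08 to -0.85 ± 0.08 (interaction -0.83 ± 0.11, limma adjusted p = 0.000323), and 2 further probe sets of the gene were called late in the same direction. Proteins of the vesicle fusion machine had the same course. Snap25 went from -0.17 ± 0.06 to -0.71 ± 0.06, Vamp2 from -0.06 ± 0.06 to -0.72 ± 0.06 and Napb, the neuronal beta-SNAP, from 0.07 ± 0.12 to -0.96 ± 0.12 (interaction limma adjusted p = 0.00175, 0.000529 and 0.00209). Snap25 signal rose with age in wildtype bulb (0.36 ± 0.06, limma adjusted p = 0.0137) and did not pass the test in transgenic bulb (-0.18 ± 0.06, limma adjusted p = 0.0653). Napb kept its call with bacterial control scaling (-0.55, limma adjusted p = 0.0254). There Gria2 was at -0.35, Vamp2 at -0.17 and Snap25 at -0.07, none of them called (limma adjusted p = 0.0977, 0.431 and 0.768). A second probe set of Vamp2 had an interaction of -0.70 that was not called (limma adjusted p = 0.124).

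Among the channels and pumps, Kcnab2, a potassium channel beta subunit, read 5972, 5495 and 5998 in wildtype and 5968, 5012 and 5188 in transgenic bulb at P23, then 7792, 7791 and 7906 and 3643, 4183 and 3616 at 4 months. The effect went from -0.11 ± 0.10 to -1.04 ± 0.10 (interaction limma adjusted p = 0.00114). A second probe set of Kcnab2 gave -0.29 and -0.57, with an interaction of -0.28 that was not called (limma adjusted p = 0.445). Atp2b2, a plasma membrane calcium pump, went from -0.09 ± 0.11 to -1.01 ± 0.11, Cacna1g, a T-type calcium channel, from -0.01 ± 0.15 to -1.16 ± 0.15, and Scn1a, a sodium channel, from 0.08 ± 0.12 to -0.78 ± 0.12. With bacterial control scaling the interactions were -0.45, -0.44, -0.66 and -0.38 in that order, none of them called (limma adjusted p = 0.0756, 0.0855, 0.06 and 0.138).

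Genes of newborn and migrating neurons followed. Of 31 kept neuroblast markers 11 had a lower effect at 4 months and 1 a higher one, the axon guidance receptor Nrp1, whose call was lost when transgenic P23 replicate 5 or 7, transgenic 4 months replicate 2 or 8, wildtype P23 replicate 11 or 12, or wildtype 4 months replicate 3 or 10 was left out. A second probe set of Nrp1 had an interaction of -0.18 that was not called (limma adjusted p = 0.843). The list's median effect was -0.03 at P23 and -0.52 at 4 months, and its median interaction of -0.52 was -0.04 with bacterial control scaling. Dcx (Entrez 13193, chromosome X, 143855842 to 143933396) encodes doublecortin, which binds microtubules in migrating neuroblasts. It read 20780, 21076 and 19094 in wildtype and 18269, 18101 and 16756 in transgenic bulb at P23. The 4 month values were 13341, 11987 and 13262 and 5760, 4942 and 5314. Its signal fell with age in both genotypes, with changes of -0.66 ± 0.08 in wildtype and -1.73 ± 0.08 in transgenic bulb (limma adjusted p = 0.00304 and 9.92e-09). The effect went from -0.20 ± 0.08 to -1.27 ± 0.08 (interaction -1.07 ± 0.12, limma adjusted p = 7.94e-05), and the call held with bacterial control scaling (-0.59, limma adjusted p = 0.0146).

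Transcription factors of the bulb's interneuron lineage were in this group. Pbx3 read 24412, 20924 and 22939 in wildtype and 22355, 20117 and 23088 in transgenic bulb at P23, then 24541, 24029 and 24485 and 11959, 12219 and 11199 at 4 months. Wildtype bulb did not pass the test for a change with age (0.10 ± 0.08, limma adjusted p = 0.641), the effect went from -0.06 ± 0.08 to -1.05 ± 0.08 (interaction limma adjusted p = 9.13e-05), and 2 further probe sets were called late in the same direction. Dlx1 and Dlx2, homeobox genes of inhibitory neuron birth, went from -0.02 ± 0.09 to -0.75 ± 0.09 and from 0.00 ± 0.13 to -0.99 ± 0.13 (interaction limma adjusted p = 0.00289 and 0.00421). The call held for Pbx3 with bacterial control scaling (-0.51, limma adjusted p = 0.0158) and ended for Dlx1 and Dlx2 (-0.25 and -0.51, limma adjusted p = 0.23 and 0.0646). The summed signal of 3 neuroblast markers (Dcx, Sox11 and Tubb3) ran from 95440 to 99450 in wildtype and from 87560 to 91370 in transgenic bulb at P23, and from 62840 to 75340 and from 41900 to 48670 at 4 months. The summed signal of 4 interneuron markers (Gad1, Gad2, Th and Calb2) ran from 106000 to 112900, from 93040 to 103300, from 121100 to 133700 and from 81170 to 86970 in the same order of groups. The part of cell number in these results was not tested.

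Immediate early genes, which neurons switch on within minutes of activity, included the largest late decrease. Of 22 kept genes 5 had a lower effect at 4 months and 1 a higher one. The lower count was 3 without wildtype 4 months replicate 3. The higher count was 2 without wildtype P23 replicate 4 and 0 without transgenic P23 replicate 5 or 7, transgenic 4 months replicate 1 or 2, wildtype 4 months replicate 9 or wildtype P23 replicate 11. By the effect at each age, 2 of the 22 were called higher and 0 lower at P23. At 4 months 5 were called higher and 5 lower, where the shares over all genes were 9.64% and 19.6%. The list's median effect was 0.34 at P23 and -0.29 at 4 months, and the sign of its median interaction (-0.27) turned with bacterial control scaling (0.21).

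Nr4a1, an orphan nuclear receptor induced by activity and by cAMP, read 13016, 6834 and 6323 in wildtype and 13890, 11867 and 9690 in transgenic bulb at P23, with groups that overlapped. At 4 months it read 18404, 10351 and 17200 in wildtype and 3276, 4793 and 2653 in transgenic bulb. The effect went from 0.50 ± 0.28 (limma adjusted p = 0.485) to -2.10 ± 0.28 (interaction -2.60 ± 0.40, limma adjusted p = 0.00124). At P23 wildtype replicate 4 lay far above wildtype replicates 11 and 12. Egr1, a zinc finger factor of the same response, went from 0.36 ± 0.20 to -1.44 ± 0.20 (interaction -1.80 ± 0.29, limma adjusted p = 0.00182). Both calls held under every scaling, with bacterial control scaling at -2.12 and -1.32 (limma adjusted p = 0.00113 and 0.00366). Egr2 and the clock gene Per1, which responds to the same signals, had interactions of -1.33 and -1.18 (limma adjusted p = 0.0189 and 0.013). With bacterial control scaling these were -0.85 and -0.70 and not called (limma adjusted p = 0.0863 and 0.0808), and the Egr2 call also ended without wildtype 4 months replicate 3 (-1.18, limma adjusted p = 0.0509).

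The Nr4a1 promoter of the same table is shown as that of the largest late decrease whose call held under every alternative. Capitals mark CGTCA, the reverse complement of TGACG, the core of the cAMP response element.
Nr4a1, plus strand, chr15:101266596-101266895: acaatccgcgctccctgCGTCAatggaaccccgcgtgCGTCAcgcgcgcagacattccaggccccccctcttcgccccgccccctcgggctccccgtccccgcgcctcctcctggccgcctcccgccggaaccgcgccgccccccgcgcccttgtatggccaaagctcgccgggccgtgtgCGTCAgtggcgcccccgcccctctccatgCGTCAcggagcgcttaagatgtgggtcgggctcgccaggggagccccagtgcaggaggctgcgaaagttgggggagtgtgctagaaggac
It held 4 matches, all on the opposite strand. At least 4 are found in 0.231% of the 32851 promoters and at least 1 in 20.8%.

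**Figure D4:**
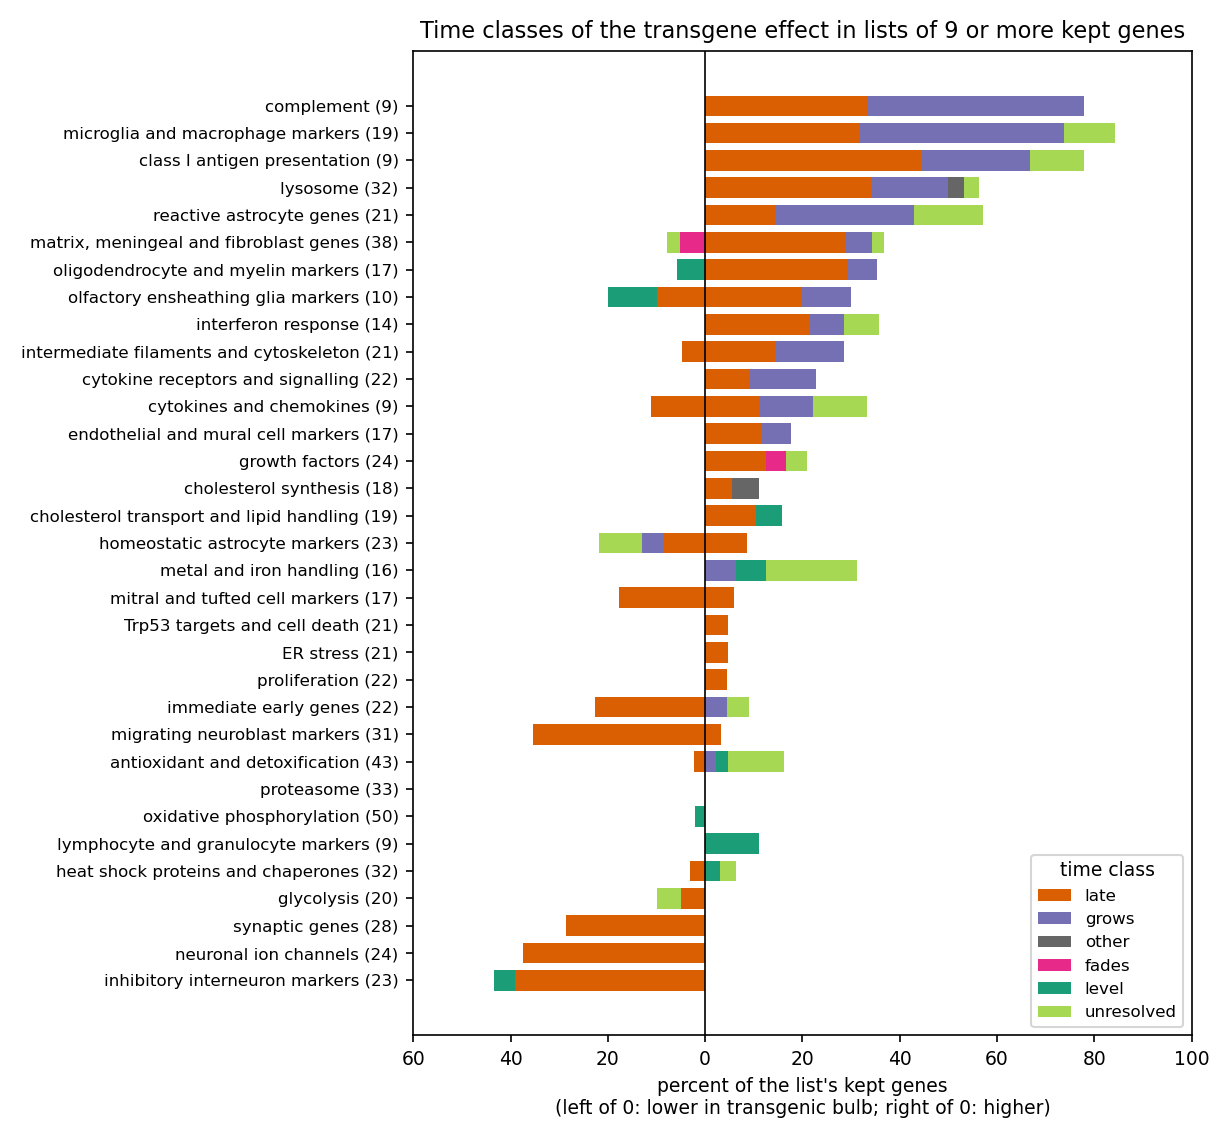
Share of the kept genes of each list (horizontal axis, percent) in each time class, with genes higher in transgenic bulb to the right of 0 and lower ones to the left, for lists of 9 or more kept genes (number in brackets). Complement, microglia and reactive astrocyte lists combine late and growing genes. Among genes with a time class, those of the matrix and lysosome lists are mostly late and those of the antioxidant and metal lists mostly unresolved. The lower side is almost all late, and most of the lower calls ended with bacterial control scaling.

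Glial lists other than reactive astrocytes moved in part. Of 17 kept oligodendrocyte and myelin markers 6 had a higher effect at 4 months and 0 a lower one, 5 late and 1 growing, with medians of -0.20 at P23 and 0.27 at 4 months. The count was 3 without wildtype P23 replicate 12. Mag, a myelin adhesion protein, read 3772, 4986 and 4827 in wildtype and 3772, 3770 and 3371 in transgenic bulb at P23, then 2731, 2696 and 2946 and 4920, 4905 and 3952 at 4 months. Its wildtype signal fell with age (-0.69 ± 0.13, limma adjusted p = 0.0214), the transgenic change was 0.33 ± 0.13 (limma adjusted p = 0.109), and the interaction was 1.02 ± 0.18 (limma adjusted p = 0.00401). A second, dim probe set of Mag gave 0.10 (limma adjusted p = 0.897). Gatm, the enzyme of creatine synthesis, had an effect of 0.08 ± 0.08 at P23 and 1.05 ± 0.08 at 4 months, and Gsn, the actin-severing protein gelsolin, -0.22 ± 0.09 and 0.99 ± 0.09 (interaction limma adjusted p = 0.000175 and 7.12e-05). The summed signal of 4 defining markers (Mbp, Mog, Mag and Mobp) ran from 64610 to 67850 in wildtype and from 52170 to 58800 in transgenic bulb at P23, and from 46590 to 47400 and from 38320 to 42590 at 4 months, lower in transgenic bulb at both ages. 

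Homeostatic astrocyte markers split. Of 23 kept genes 2 had a higher and 3 a lower effect at 4 months, the latter count 5 without wildtype P23 replicate 4 and 1 without wildtype 4 months replicate 10, and the sign of the median interaction (-0.20) turned with bacterial control scaling (0.28). Ntsr2, a neurotensin receptor of astrocytes, was the 1 lower gene with a growing effect. It read 12294, 12367 and 14419 in wildtype and 6456, 7685 and 6776 in transgenic bulb at P23, then 13460, 13680 and 14669 and 5414, 3893 and 4570 at 4 months, with effects of -0.90 ± 0.12 and -1.60 ± 0.12. Its interaction of -0.70 ± 0.17 (limma adjusted p = 0.0195) lost its call without wildtype 4 months replicate 10 (-0.66, limma adjusted p = 0.056) and with bacterial control scaling (-0.22, limma adjusted p = 0.43). Aqp4, the water channel of astrocyte endfeet, read 18285, 16710 and 18160 in wildtype and 14749, 13028 and 15741 in transgenic bulb at P23, then 15909, 14870 and 16065 and 21414, 20400 and 17632 at 4 months. Its effect went from -0.29 ± 0.09 to 0.34 ± 0.09 (interaction 0.63 ± 0.13, limma adjusted p = 0.00904), and its second probe set was called lower at P23 (-0.41, limma adjusted p = 0.0359) and higher at 4 months (0.50, limma adjusted p = 0.00118). The 4 month call of the brighter probe set ended without transgenic 4 months replicate 1 (0.28, limma adjusted p = 0.0577). Igfbp2, which binds insulin-like growth factors, was late with -0.07 ± 0.10 and 0.69 ± 0.10.

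Other lists held few calls, where the shares over all genes were 3.65% higher and 3.67% lower. Of 50 oxidative phosphorylation genes none was called for the interaction in limma, although 29 were called lower at 4 months against 1 at P23. Over all genes the shares called lower were 19.6% and 0.530%. At an unadjusted limma p under 0.05 for the interaction, 13 of the 50 were lower and 0 higher. Of all 7453 probe sets, 1109 were lower and 625 higher at that p. Without wildtype P23 replicate 4, 3 of the 50 were called lower. Of 33 proteasome genes none was called (unadjusted p under 0.05 for 1 higher and 3 lower, and 1 called higher without transgenic 4 months replicate 8), and of 32 heat shock proteins and chaperones 1 was called lower (2 without wildtype P23 replicate 4, and 0 when any 1 other array except wildtype 4 months replicate 9 was left out), with the sign of all 3 medians turning under bacterial control scaling. Endoplasmic reticulum stress genes held 1 call of 21, the disulfide isomerase Pdia4 (-0.09 ± 0.12 at P23 and 0.76 ± 0.12 at 4 months, interaction limma adjusted p = 0.0071). Trp53 target and cell death genes held 1 of 21 (2 without transgenic 4 months replicate 8, and 2 higher and 1 lower without wildtype P23 replicate 4), the survival signalling inhibitor Phlda3 (0.25 ± 0.16 and 1.43 ± 0.16, interaction limma adjusted p = 0.00523). Proliferation genes held 1 of 22, Ccnd1, cyclin D1 (0.49 ± 0.17 and 1.95 ± 0.17, interaction limma adjusted p = 0.00185), whose second probe set was not called (0.40, limma adjusted p = 0.754). Endothelial and mural cell markers held 3 higher calls of 17, a larger share than over all genes, among them the adhesion molecules Mcam (0.07 ± 0.16 and 1.73 ± 0.16) and Vcam1 (0.83 ± 0.17 and 2.14 ± 0.17). At 4 months 4 of the 17 were called higher and 1 lower. The endothelial markers Cldn5 and Pecam1 differed there, with mean signals of 8140 and 868.5 in transgenic and 4061 and 1421 in wildtype bulb. A second probe set of Vcam1 was late, with 0.02 at P23 (limma adjusted p = 0.983). The P23 call of the first Vcam1 probe set was lost when leaving out wildtype P23 replicate 11 (0.79, limma adjusted p = 0.0522), and likewise transgenic P23 replicate 5 (0.79, limma adjusted p = 0.0773) or 7 (0.77, limma adjusted p = 0.0691).

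The interaction can come from a change with age in either genotype. Among the 207 genes with a higher effect at 4 months, 176 rose with age in transgenic bulb and 11 fell with age in wildtype bulb. Their median change with age was 0.90 in transgenic and -0.16 in wildtype bulb. Among the 208 with a lower effect, 156 fell with age in transgenic bulb, 10 rose and 3 fell in wildtype bulb, with medians of -0.50 and 0.24. Neither genotype passed its own test for 23 and 44 of these genes. Over all genes 774 (13.7%) changed with age in transgenic bulb, 340 upward and 434 (7.66%) downward, and 55 (0.971%) in wildtype bulb, 0.335% upward and 0.636% downward. By probe set the wildtype count was 76, and it moved to 119, 34 and 6 without wildtype P23 replicates 4, 11 and 12, 48 and 45 without transgenic P23 replicates 5 and 7, 29, 22 and 18 without wildtype 4 months replicates 3, 9 and 10, and 49 without transgenic 4 months replicate 2. The effects at both ages and the interaction share arrays, so that these counts are not independent of each other.

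**Figure D5:**
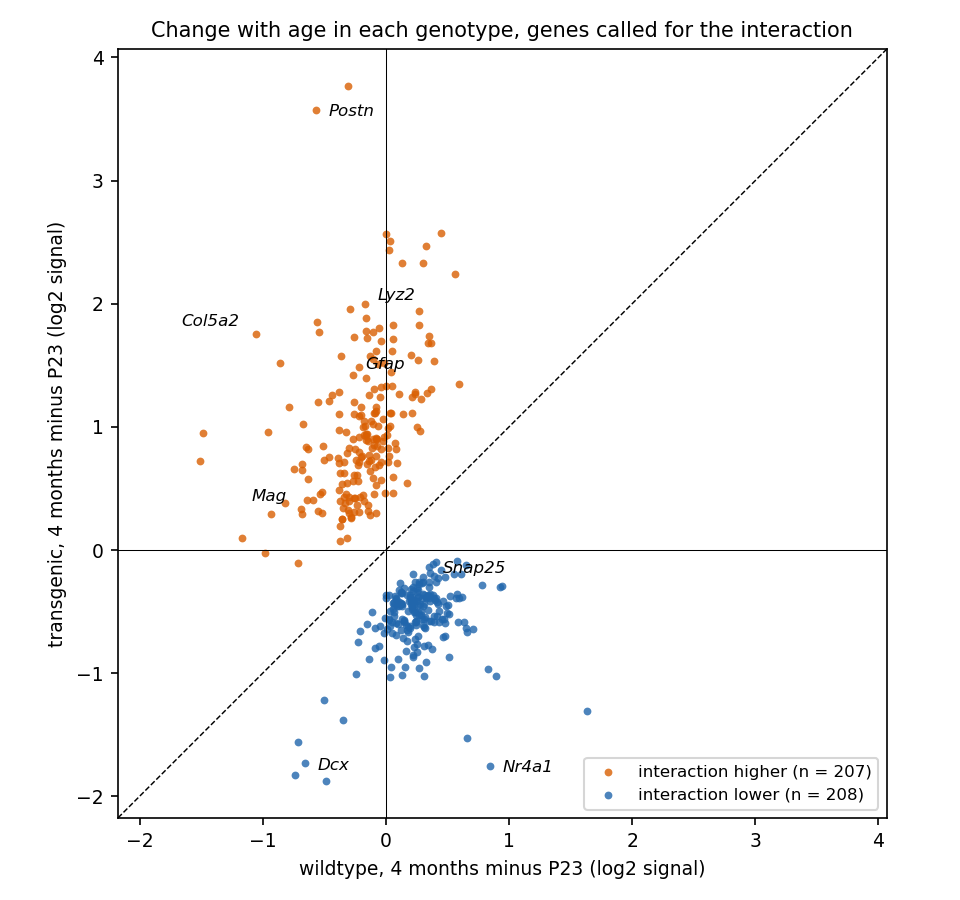
Change from P23 to 4 months (log2 signal) in wildtype bulb (horizontal axis) and in transgenic bulb (vertical axis) for the 415 genes called for the interaction; each point is a gene, and the dashed line marks equal change. Genes with a higher effect at 4 months (orange) lie mostly above 0 on the transgenic axis and genes with a lower effect (blue) below it, while the wildtype changes of both sets spread around 0.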

How the data were processed

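RNA of 12 olfactory bulb samples was measured on Affymetrix MG-U74Av2 arrays. The deposited table holds 1 intensity per probe set and array on a linear scale. The trimmed mean was 2501 on each array. Which software summarised the probes is not stated in the sources used here, and 0 sample columns were left unused. Of 12488 probe sets, 66 controls were left out. Because the array medians differed by 1.114-fold, each array was rescaled to the common median, values under 209 (the 20th percentile) were set to it, and log2 was taken. The 7453 probe sets with a mean log2 over 9.43 (the 40th percentile) were kept. A gene took its probe set of highest mean (5664 genes). Symbols came from the platform annotation: 10833 probe sets had 1, 396 several and 1193 none. Locations and promoters came from RefSeq GRCm38.p6.

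One model with 4 group means was fitted with limma 3.58.1 in R 4.3.3 (8 residual degrees of freedom, moderation with a trend), Benjamini-Hochberg adjusted over all kept probe sets. The fit was tested on simulated data. With 3 arrays a group, array number limits the precision. Named genes were those with the largest called interaction, the leading genes of each time class and the leading members of each of 38 lists. Alternatives covered scaling, floor, filter, moderation, array weights, threshold, level margin, choice of probe set and leaving out each array. The members and lists were chosen with earlier results of these data known.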

Additional observations from a re-analysis of the deposited data

Results flagged for a closer look

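The transgene effect differed between the ages by a test of the difference itself, the interaction in limma, for 263 probe sets that were higher and 281 that were lower at 4 months. Among the genes, 11 were fading or were called for the interaction and at neither age. Sgip1 had an interaction of -1.18 and Bgn of 1.11, both called in opposite directions at the 2 ages. The 4 month call of Sgip1 ended with bacterial control scaling (-0.25, limma adjusted p = 0.189). Ccn2 had -0.81, Asb6 1.95 and Islr 0.41, each called at P23 and not at 4 months. Another 6 genes were called for the interaction and at neither age: Gtf2f2, a general transcription factor subunit (-2.94), Capn1, a calcium-dependent protease (2.42), Ppic, a peptidyl-prolyl isomerase (1.26), Scd1, a fatty acid desaturase (0.98), Klf13, a zinc finger factor (-0.55), and Psap, the precursor of lysosomal saposins (0.47). Of the 12 fits that left out 1 array, the interaction lost its call in 2 for Gtf2f2, 9 for Capn1, 7 for Ppic, 6 for Scd1, 10 for Klf13, 9 for Psap, 11 for Islr, and 3 each for Asb6 and Ccn2. It kept its call in all 12 for Sgip1 and Bgn. The P23 call was lost in 5 of these fits for Asb6 and 4 for Bgn.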

How the results depend on the processing

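Of 115 named genes called for the interaction, 62 kept call and sign under every alternative that gave a value and 80 under all but bacterial control scaling, where 29 lost the call and Dnajb6 changed sign (0.0873). With that scaling, chosen after seeing the data, 1450 probe sets were higher and 26 lower for the interaction, 572 were called at P23, 1389 at 4 months and 1499 for age in transgenic bulb, and genes numbered 624 late higher, 10 late lower, 42 level, 22 unresolved and 166 fading. At an adjusted p threshold of 0.01 the same results were 127, 88, 80, 1243 and 485, with 11 probe sets for age in wildtype bulb, and 79 late higher, 65 late lower, 23 growing, 7 level, 24 unresolved and 1 fading gene. Moderation without a trend gave 185 lower probe sets, 21 for wildtype age, and 130 late lower, 10 level and 2 fading genes. Array weights gave 459 lower probe sets, 153 for wildtype age and 324 late lower genes. A floor at the 40th percentile gave 238 late higher genes, no filter gave 24 probe sets for wildtype age, and a 2-fold level margin gave 54 level and 16 unresolved genes. The cause of these shifts was not tested, other than the stricter threshold and wider margin themselves. Leaving out 1 array gave 199 to 294 higher and 151 to 449 lower probe sets, 101 to 164 called at P23, 1562 to 2240 at 4 months, 6 to 119 for wildtype age and 646 to 1098 for transgenic age. Genes then numbered 123 to 174 late higher, 108 to 320 late lower, 30 to 46 growing, 8 to 25 level, 28 to 50 unresolved and 2 to 11 fading. No paired analysis was possible because no replicate number is shared between groups. A signal near the floor of 209 understates a fold change, and 3 genes had a group wholly at it.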
